A study of Mus musculus with 4 samples.

Results

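The genes described here are the mouse histone genes of the 4 chromosomal histone clusters, taken as every gene whose symbol begins with Hist1h, Hist2h, Hist3h or Hist4h in all 4 single-cell matrices. There were 67 of them among the 32285 features of the lung matrices and the 31053 features of the allograft matrices. Of these, 64 had at least 20 UMIs (unique molecular identifiers, the counted RNA molecules) in at least 1 library and were kept for values; Hist1h2ba, Hist1h2bq and Hist2h2aa2 did not reach this number. Members that code for the linker histone H1 numbered 6, H2A 18, H2B 18, H3 12 and H4 13. Chromosome 13 holds the Hist1 cluster with 54 members (21715763 to 23934851), chromosome 3 the Hist2 cluster with 10 (96219865 to 96270132), chromosome 11 the Hist3 cluster with 2 (58948920 to 58956830) and chromosome 6 Hist4h4 alone (136801553 to 136804415), in mm10 coordinates of the GENCODE annotation.

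The study used a mouse model of small cell lung cancer, a neuroendocrine lung tumour, and profiled cells with droplet 3′ RNA sequencing. RPR2 and CRPR2 are lung tumours. The labels leave these names unexplained; in this field RPR2 stands for loss of Rb1, Trp53 and Rbl2, which both groups then share, and CRPR2 for those 3 losses with Cracd lost as well. The preSC_WT and preSC_CracdKO libraries are allografts of a preSC cell line with the genotypes WT and CracdKO. Each of the 4 groups is 1 library. Age, sex, strain, the host of the allografts, the number of animals or clones behind a library and the driver of gene loss were not given in the labels.

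The RNAs of these genes are the bulk source of new histones when DNA is copied. Textbook knowledge holds that their transcription is switched on in S phase through NPAT, a coactivator gathered at the gene clusters. Most of their mRNAs end in a conserved stem-loop, bound by the stem-loop binding protein SLBP, in place of a poly(A) tail; the library chemistry used here captures RNA through poly(A), so its counts cover the polyadenylated or internally primed fraction of these RNAs, and a level here is not the total amount of a histone mRNA. 3′ tags are counted once per molecule and carry no length scaling.

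The stem-loop is the sequence that sets these RNAs apart, and it was read from the annotated coding transcripts. A 16-base match was found in 46 of the 67 members and not in the other 21, against 68 of 21877 coding genes overall (0.311%), H2afx among the non-members. The forms differed by the histone class of the gene, as the following sequences show. Capitals mark the 6 central bases, which are the loop and the outer T and A that pair to close the stem.
Form shared by 26 H1, H2A, H2B and H3 members: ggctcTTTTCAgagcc
Form of 7 H4 members, among them Hist1h4d and Hist4h4: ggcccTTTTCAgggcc
Hist1h1t, Hist1h2bb, Hist1h2bk, Hist1h3c, Hist1h3e and Hist1h3f: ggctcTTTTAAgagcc
Hist1h4i and Hist2h4: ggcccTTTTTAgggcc
Hist1h4b and Hist1h4j: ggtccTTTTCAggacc
Hist1h4a: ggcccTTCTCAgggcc
Hist1h3g: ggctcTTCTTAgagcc
Hist2h2ac: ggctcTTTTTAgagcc
No stem-loop match in the annotated transcript says only that these letters are not in that model. How far a transcript ran on past the stem-loop varied widely: 23 members had over 100 further bases, 23 had 100 or fewer and 21 had no match. In 33 members, 30 of them kept, over 50% of the 50-base words in the last 300 bases were shared with another member. Reads from such near-identical ends can be split or discarded by a counter. Counts of single members such as Hist1h2ap, Hist1h2bl, Hist1h3e, Hist1h3f, Hist2h2aa1 and Hist1h2bn are therefore uncertain. The same holds for Hist1h2ab, Hist1h2af and Hist1h3b, with shares of 70.1%, 72.1% and 54.2%, which are among the members with the highest cycling ratios below. Hist1h1b, Hist1h1c, Hist1h1e, Hist1h4d, Hist1h2bc and Hist3h2ba shared none.

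RefSeq promoters (GRCm38.p6) were matched for 62 members. In the 250 bases before the start, CCAAT on either strand was present in 82.3% of the members and 34.5% of all 27025 promoters; the member share was 6 of 6 for H1, 18 of 18 for H2A, 16 of 16 for H2B, 8 of 10 for H3 and 3 of 12 for H4. TATAAA was present in 46.8% against 13%, and the octamer ATTTGCAT in 21.0% against 1.61%, with 7 of 18 H2A and 6 of 16 H2B members holding it and no H1, H3 or H4 member. These matches describe letters, not bound sites. Some H2A and H2B genes lie side by side on opposite strands, and their windows overlap. Examples are Hist1h2aa with Hist1h2ba, Hist1h2ae with Hist1h2bg, Hist1h2ah with Hist1h2bk and Hist1h2ap with Hist1h2br. The same site can then count for both genes, so the member shares are not shares of independent promoters. The 2 members shown here are those at the ends of the order of responses given below, Hist1h3c (chr13:23745522-23745771, minus strand) and Hist3h2ba (chr11:58948661-58948910, plus strand), with capitals marking matches to any of the 3 motifs on either strand.
Hist1h3c: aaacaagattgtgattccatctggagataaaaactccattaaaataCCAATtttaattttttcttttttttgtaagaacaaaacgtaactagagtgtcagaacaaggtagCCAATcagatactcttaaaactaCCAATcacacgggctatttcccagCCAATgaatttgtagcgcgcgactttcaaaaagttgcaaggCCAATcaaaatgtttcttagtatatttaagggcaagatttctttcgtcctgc
Hist3h2ba: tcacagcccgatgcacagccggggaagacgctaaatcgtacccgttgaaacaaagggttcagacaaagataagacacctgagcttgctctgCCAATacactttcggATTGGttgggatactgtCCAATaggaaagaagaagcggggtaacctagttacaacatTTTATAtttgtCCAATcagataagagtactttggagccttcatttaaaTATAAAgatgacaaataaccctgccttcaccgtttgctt
Both promoters hold several CCAAT matches, and Hist3h2ba also holds TATAAA.

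Depth and cell quality were as follows. The libraries held 9215 (RPR2), 12164 (CRPR2), 18559 (preSC_WT) and 16282 (preSC_CracdKO) barcodes with 42592323 to 110576113 UMIs, of which 8869, 10798, 18111 and 14035 cells were kept. Pairs of libraries shared 31 to 70 barcodes. Tumour cells were named from 22 neuroendocrine and lung markers, all above 0 in each library; Calca, a neuroendocrine peptide gene, stood at 3468, 7254, 3271 and 645 CPM (UMIs divided by all UMIs of the cells and scaled to 1e6) in RPR2, CRPR2, preSC_WT and preSC_CracdKO tumour cells. Transcripts of Cracd (C530008M17Rik) stood at 31.6, 23.6, 5.87 and 84.4 CPM in that order, so that the library labelled preSC_CracdKO held more of them than preSC_WT; a 3′ tag outside a deleted part does not check a deletion. That library's label is therefore used as a label only. With 1 library per group no test between groups is possible, no p-value is given, and every interval (95%) covers counting error alone.

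Cells were called cycling when, thinned to 1000 UMIs, they held at least 3 UMIs from lists of 23 S-phase and 26 G2/M genes that contain no histone gene. This is a range of a score and not a cell type: 53.9%, 40.6%, 45.7% and 47.2% of the tumour cells of RPR2, CRPR2, preSC_WT and preSC_CracdKO passed, with 340 to 1255 cells per library at the cut and 458 to 1949 just under it. Histone cluster RNA was higher in cycling than in non-cycling tumour cells of every library. Summed over the members, it made up 5883 CPM in 1601 cycling and 2383 CPM in 1368 non-cycling cells of RPR2, a ratio of 2.47 (2.43 to 2.51). In CRPR2 the levels were 6119 CPM in 2522 cycling and 2616 CPM in 3694 non-cycling cells, a ratio of 2.34. In preSC_WT they were 4974 CPM in 5556 and 2886 CPM in 6601 cells, a ratio of 1.72. The library labelled preSC_CracdKO stood apart, with 5164 CPM in 6263 cycling and 596 CPM in 6994 non-cycling cells, a ratio of 8.67. So the cycling cells of all 4 libraries lay between 4974 and 6119 CPM, and the spread among the libraries was in the non-cycling cells. Cycling cells were also the deeper ones, with median UMIs of 7095, 4098.5, 6275 and 6821 against 5371, 3218.5, 4257 and 5326.5 in non-cycling cells. In tumour cells of matched depth, 4000 to 8000 UMIs each, the ratios were 1.87, 2.63, 1.79 and 8.11. Shallower cells gave smaller gaps in the allografts: in preSC_WT cells of 1000 to 2000 UMIs the order was reversed, with 3126 CPM in cycling and 3483 CPM in non-cycling cells, and at 2000 to 4000 UMIs the levels were 4002 and 3498 CPM. At 2000 to 4000 UMIs they were 2018 and 734 CPM in preSC_CracdKO, 4508 and 2947 CPM in CRPR2 and 7691 and 2570 CPM in RPR2.

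**Figure D1:**
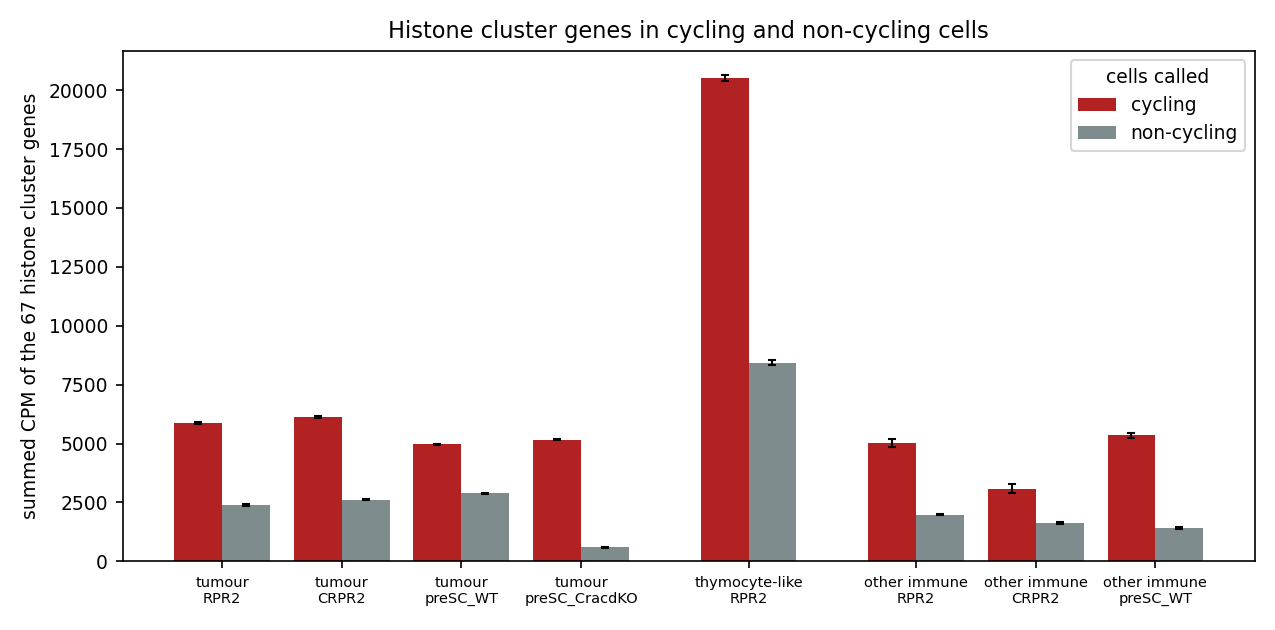
Summed level of the histone cluster genes (CPM, vertical axis) in cycling and non-cycling cells of each class and library, with bars for the level and error bars for the 95% counting interval. Cycling tumour cells lie between 4974 and 6119 CPM, non-cycling tumour cells of preSC_CracdKO at 596 CPM, and thymocyte-like cells of RPR2 above all tumour cells.

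Members were then compared gene by gene, as the log2 ratio of CPM + 1, among genes with a mean of at least 5 CPM over the classes compared. A 2-fold or larger higher level in cycling tumour cells was found for 29 of 43 members tested in RPR2, 31 of 42 in CRPR2, 24 of 46 in preSC_WT and 44 of 46 in preSC_CracdKO, and 0 members were 2-fold lower. Over all genes tested, 3.38%, 4.24%, 3.9% and 3.62% were 2-fold higher and 0.218%, 0.164%, 0.0455% and 0.157% lower. In all 4 libraries together, 20 of the 36 members tested throughout were 2-fold higher, against 247 of 9279 genes (2.66%). Over all 64 kept members, including those too low to be tested, the median log2 ratio was 1.51, 1.36, 0.98 and 2.39, and over all genes tested it was 0.00, 0.01, 0.01 and 0.03. A member that passed the 5 CPM minimum only through its cycling level had to differ. With a minimum of 20 CPM, 15 of 23, 22 of 26, 9 of 19 and 25 of 27 were 2-fold higher, against 2.99%, 3.67%, 3.47% and 3.44% of all genes. That minimum is also a mean over both classes and does not remove this limit. Members such as Hist1h3c still passed it only through their cycling level.

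Among the members tested, the histone classes differed in these ratios. Fewer were tested than the 12 H3 and 13 H4 members kept, and the set tested differed by library. A member that passed the 5 CPM minimum only through its cycling level had to differ. The medians and counts below are therefore not those of all members of a class. H3 members, the histones that carry most of the tail modifications, had median log2 ratios of 2.61, 2.35, 2.32 and 3.36 in RPR2, CRPR2, preSC_WT and preSC_CracdKO, and H2A members 2.55, 2.83, 2.29 and 3.54. For H2B members the medians were 1.75, 1.76, 1.35 and 3.41. The H4 medians were the lowest of the 5 classes in each library, at 0.69, 0.85, 0.33 and 1.65. Of the H4 members tested, 1 of 7, 3 of 8, 0 of 9 and 9 of 9 were 2-fold higher, against 7 of 8, 9 of 9, 5 of 7 and 8 of 8 for H3. Linker H1 members had medians of 1.45, 1.38, 0.94 and 3.83, between H4 and the other classes in RPR2, CRPR2 and preSC_WT and the highest of the 5 in preSC_CracdKO, with 3, 3, 2 and 5 of 5 members 2-fold higher.

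**Figure D2:**
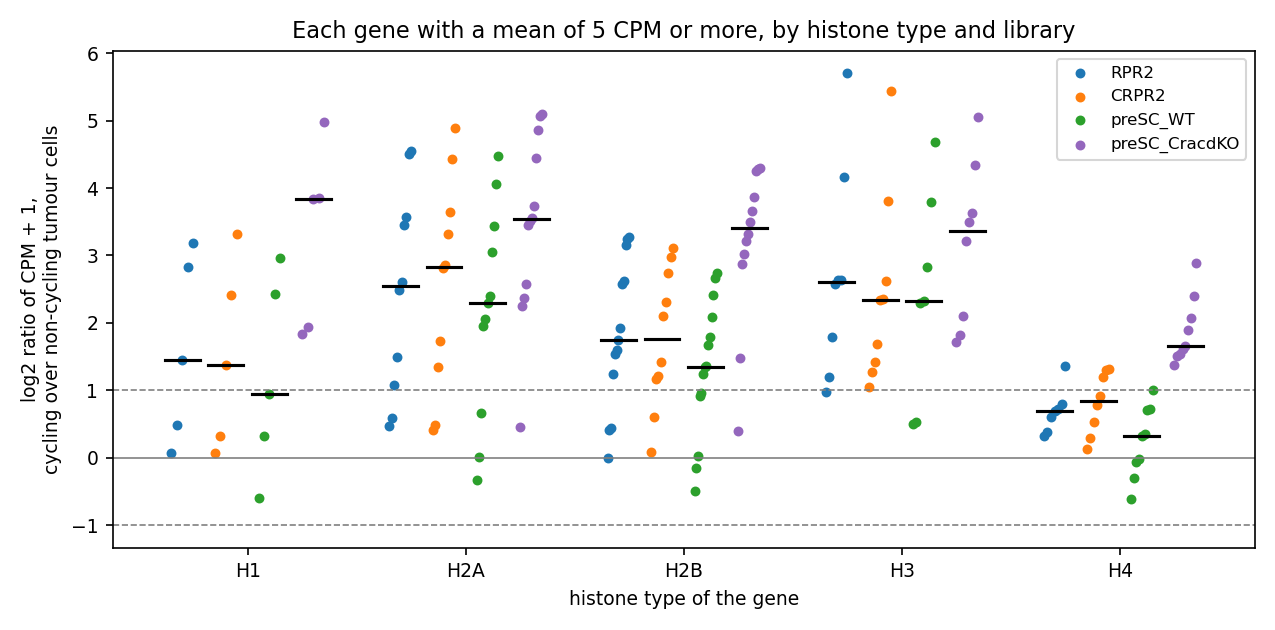
Log2 ratio of cycling over non-cycling tumour cells (vertical axis) for each tested member, grouped by histone class and coloured by library, with a black line at each class median and dashed lines at 2-fold. The H4 median is the lowest of the 5 in each library (0.33 to 1.65), and each class has its highest median in preSC_CracdKO.

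Among H1 genes, Hist1h1b and Hist1h1e behaved differently although both code for somatic linker histones. Hist1h1b stood at 541, 463, 336 and 269 CPM in cycling cells and at 75.0, 85.7, 61.4 and 7.55 CPM in non-cycling cells, ratios of 7.21 (6.66 to 7.82), 5.40 (5.08 to 5.75), 5.47 (5.23 to 5.73) and 35.6 (31.8 to 40.0). Hist1h1e, which had the most UMIs of the H1 genes, stood at 763, 633, 480 and 362 CPM against 542, 508, 382 and 93.5 CPM, ratios of 1.41, 1.25, 1.26 and 3.87. Its cycling and non-cycling levels thus differed by less than 2-fold in 3 of the libraries. Hist1h1c, one of the 5 members with the lowest median ratio, was level in the lung tumours at 299 against 285 and 391 against 371 CPM. It was lower in cycling cells of preSC_WT, 283 against 431 CPM, and higher in cycling cells of preSC_CracdKO, 111 against 30.4 CPM. Hist1h1d had 139, 116, 83.0 and 59.9 CPM in cycling and 50.3, 44.0, 42.8 and 3.27 CPM in non-cycling cells.

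Among H2A genes, Hist1h2ae had the most UMIs. Its levels were 697, 766, 631 and 699 CPM in cycling cells and 57.4, 60.1, 57.6 and 19.9 CPM in non-cycling cells, ratios of 12.1, 12.8, 11 and 35.2, and it was one of the 5 members with the highest median log2 ratio (3.61). Hist1h2ap stood at 346, 210, 954 and 643 against 30.7, 20.2, 114 and 17.8 CPM. The widest ratios in this class belonged to less abundant genes: Hist1h2ab stood at 185, 168, 29.2 and 125 against 6.95, 4.69, 0.806 and 3.35 CPM, and Hist1h2af at 32.1, 28.1, 36.6 and 42.9 against 0.456, 0.345, 0.691 and 1.01 CPM. The ends of Hist1h2ab and Hist1h2af are largely shared with other members, so these single-gene counts are uncertain. Hist2h2ac, of the Hist2 cluster, was at 71.1, 101, 51.2 and 247 against 24.6, 29.5, 11.5 and 20.8 CPM. Hist3h2a, of the Hist3 cluster, differed by less than 2-fold everywhere, with 140, 141, 73.3 and 26.3 against 100, 101, 92.5 and 19.0 CPM.

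Hist3h2ba, the H2B gene with the most UMIs, had the smallest median log2 ratio (0.04) of the members tested in all 4 libraries. It was at 480 CPM in both cycling and non-cycling cells of RPR2 (ratio 0.999, 0.961 to 1.04) and at 603 against 567 CPM in CRPR2. In preSC_WT it was at 647 against 912 CPM and in preSC_CracdKO at 167 against 127 CPM, so its direction differed between the allografts. Hist1h2bc was at 371, 776, 269 and 38.4 CPM in cycling and 273, 345, 299 and 13.2 CPM in non-cycling cells, and passed 2-fold in CRPR2 and preSC_CracdKO. Its annotated transcript carries no stem-loop match. Hist2h2bb and Hist1h2bn, by contrast with Hist3h2ba, were higher in cycling cells throughout, at 57.0, 53.2, 22.7 and 97.4 against 14.2, 11.7, 5.84 and 11.1 CPM, and at 36.2, 41.6, 29.8 and 76.7 against 2.85, 3.93, 4.75 and 3.00 CPM.

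Hist1h3c, an H3 gene, had the highest median log2 ratio (5.25) of the members tested in all 4 libraries. It was at 223, 138, 74.8 and 392 CPM in cycling cells and at 3.30, 2.21, 1.96 and 10.8 CPM in non-cycling cells, ratios of 67.4 (46.9 to 101), 62.6 (44.2 to 91.9), 38.2 (30.1 to 49.3) and 36.2 (32.9 to 39.9). Non-cycling cells thus held under 4 CPM of it in 3 libraries. Hist1h3b, at 25.1, 23.6, 17.6 and 38.7 against 0.456, 0.759, 0.345 and 0.959 CPM, was the fourth in that order. Its end is also largely shared with other members. Hist1h3e had the most UMIs of the class and was at 265, 206, 130 and 271 against 41.8, 39.3, 25.6 and 23.0 CPM. Hist1h3f and Hist1h3i followed the same direction, at 73.3, 62.4, 34.9 and 61.3 against 11.4, 11.5, 4.03 and 5.71 CPM and at 45.4, 38.3, 34.7 and 94.5 against 6.50, 5.38, 6.16 and 6.74 CPM.

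Hist1h4d, the H4 gene with the most UMIs, was at 413, 409, 188 and 444 CPM in cycling and 159, 166, 93.7 and 83.4 CPM in non-cycling cells, ratios of 2.59, 2.47, 2.01 and 5.32. Hist1h4i did not follow it. That gene was at 54.9 and 109 against 33.6 and 43.1 CPM in RPR2 and CRPR2, at 72.6 against 111 CPM in preSC_WT and at 7.90 against 2.44 CPM in preSC_CracdKO. The H4 genes outside chromosome 13 were low and nearly level: Hist2h4 stood at 9.39, 8.65, 5.97 and 8.66 against 7.29, 6.90, 6.27 and 2.41 CPM, and Hist4h4 at 9.84, 10.8, 9.25 and 8.40 against 7.29, 9.80, 9.32 and 2.24 CPM. Both were among the 5 members with the lowest median ratio, with Hist3h2ba, Hist1h1c and Hist1h1e.

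Members of the Hist2 cluster other than those above stayed low. Hist2h2aa1 was at 13.2 to 21.9 CPM in cycling and 3.81 to 19.7 CPM in non-cycling cells, and Hist2h2be at 4.78 to 15.3 and 2.02 to 12.5 CPM. Hist2h3b reached 3.48 to 9.66 CPM in cycling and 0.456 to 1.53 CPM in non-cycling cells. The levels of Hist2h3c1 and Hist2h3c2 in cycling cells were 8.21 and 8.36 CPM in RPR2 and 0.847 and 0.152 CPM in preSC_CracdKO. Hist2h2ab did not exceed 2.87 CPM in cycling or 1.17 CPM in non-cycling cells.

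Transcript ends divided the members further. Those annotated with over 100 bases past the stem-loop supplied 77.3%, 76.5%, 77.6% and 71.9% of the summed level in non-cycling tumour cells of RPR2, CRPR2, preSC_WT and preSC_CracdKO, and 59.6%, 59.5%, 55.4% and 45.4% in cycling cells. Their summed level was 1.90, 1.82, 1.23 and 5.47 times as high in cycling cells. For members ending within 100 bases of the stem-loop the ratios were 7.92, 6.65, 5.91 and 18.7, and for members with no match 3.19, 3.28, 2.13 and 14.3. By these sums the short-ended class had the widest ratio in each library. By the median log2 ratio of tested members the order was the other way in RPR2 and preSC_WT: members with no match were at 2.62, 2.72, 2.31 and 3.56 and short-ended ones at 2.60, 2.75, 1.86 and 3.59. The long-ended class holds Hist3h2ba, Hist1h1c, Hist1h1e, Hist2h4 and Hist4h4, all of the 5 members with the lowest median ratio, but also Hist1h2ae. Capture through poly(A) depends on the RNA end, and its part in these ratios was not tested. The division by transcript end also overlaps with histone class. The H4 members Hist1h4a, Hist1h4c, Hist1h4d, Hist1h4i, Hist1h4j, Hist2h4 and Hist4h4 are all long-ended. The parts of class and end in the ratios were not told apart.

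**Figure D3:**
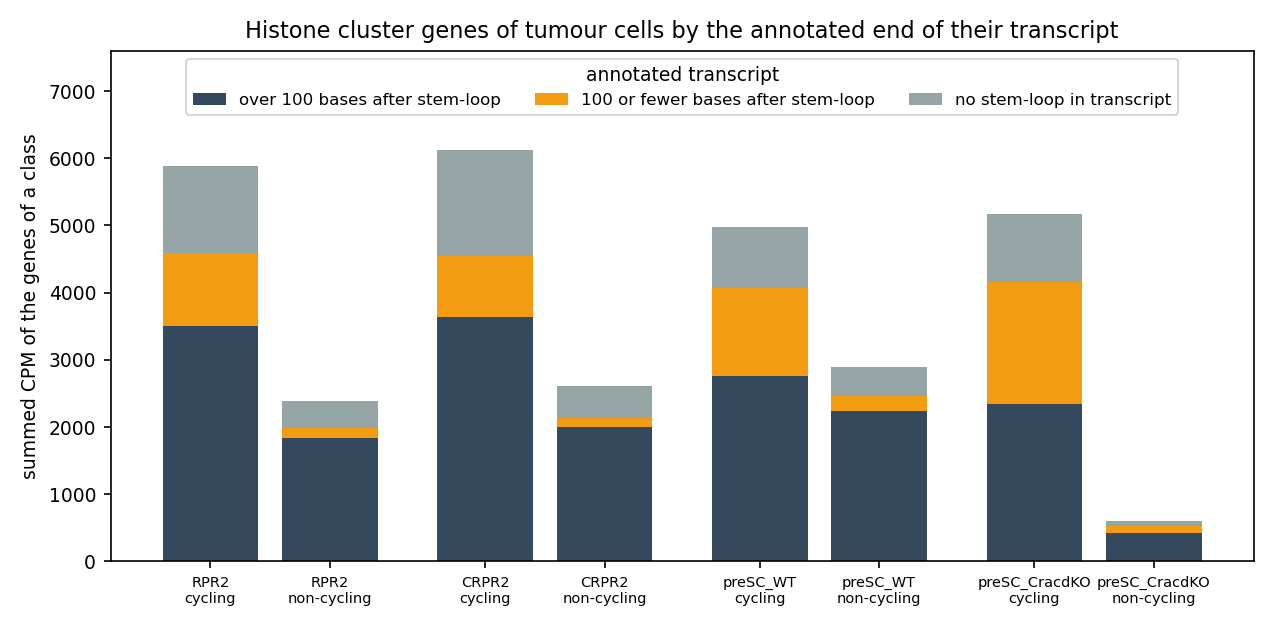
Summed level (CPM, vertical axis) of the histone cluster genes in cycling and non-cycling tumour cells of each library, as bars stacked by the annotated end of the transcript. The part with over 100 bases past the stem-loop fills 71.9% to 77.6% of the non-cycling bars and 45.4% to 59.6% of the cycling bars.

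Cycling tumour cells were divided by which of the lists gave more UMIs, into an S range and a G2/M range. The S range is a part of the score and not S phase itself. In RPR2, CRPR2, preSC_WT and preSC_CracdKO, 13, 12, 11 and 9 of the 23 S list genes were 2-fold higher there. The S list gene Rrm2 was 2-fold lower there in RPR2, CRPR2 and preSC_CracdKO. Histone cluster RNA was concentrated in the cells with more G2/M than S UMIs. The summed level was 1804 CPM in the S range and 11438 CPM in the G2/M range of RPR2 (ratio 0.158), and 2105 and 13438 CPM in CRPR2 (0.157). In preSC_WT it was 1834 and 7540 CPM (0.243) and in preSC_CracdKO 1565 and 6605 CPM (0.237). Of the members tested, 49 of 51, 49 of 50, 45 of 50 and 48 of 49 were 2-fold lower in the S range and 0 were higher, while 3.87%, 4.26%, 3.28% and 3.17% of all genes were 2-fold lower and 1.66%, 1.11%, 0.344% and 0.341% higher. Low members that entered these counts only through their G2/M level had to be lower in the S range; over all 64 kept members the median log2 ratio was -2.45, -2.50, -1.96 and -1.77. Hist1h2ae shows the gap per gene, with 99.4, 106, 95.1 and 163 CPM in the S range and 1519, 1980, 1074 and 915 CPM in the G2/M range. Even Hist3h2ba, level between cycling and non-cycling cells of RPR2, was at 264, 339, 411 and 94.5 against 775, 1089, 841 and 199 CPM.

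A finer division placed the histone RNA by the lists held together. Cells with at least 3 UMIs of the S list alone had 1570, 1793, 1597 and 1147 CPM, those with at least 3 of both lists 10912, 13772, 8091 and 9672 CPM, and those with at least 3 of the G2/M list alone 11192, 13112, 7046 and 5977 CPM. This division was chosen after the values above were seen. Cells with the S list alone thus had less histone RNA than non-cycling cells in RPR2, CRPR2 and preSC_WT, and more in preSC_CracdKO. Clusters of tumour cells, made without these genes, were ordered likewise in the lung libraries and preSC_WT. Lung cluster 8, with the highest S list level (4020 CPM in RPR2, 3995 CPM in CRPR2), had 1700 and 2206 CPM of histone RNA, whereas lung cluster 5, with G2/M list levels of 11901 and 13524 CPM, had 11955 and 15927 CPM. In preSC_WT, cluster 10 (S list 3680 CPM) had 1298 CPM and cluster 5 (G2/M list 10500.1 CPM) 7675 CPM. In preSC_CracdKO the order within the G2/M side differed: cluster 4, with 6529 CPM of the G2/M list, had 9259 CPM of histone RNA and cluster 3, with 10551 CPM, had 3873 CPM. Cluster 4 also had more of the S list, 2222 CPM against 988 CPM in cluster 3. Thymocyte-like lung cluster 11 of RPR2 was high in both lists, with 3994 CPM (S) and 6138 CPM (G2/M). It had 21480 CPM of histone RNA. The lists themselves were uneven: all 26 G2/M genes were 2-fold higher in cycling cells of each library, against 11, 17, 11 and 8 of the 23 S genes, and the part of this in the S range values was not tested. In preSC_CracdKO the S to G2/M ratio was 0.479 with a cut of 5 UMIs and 0.130 with cells thinned to 2000 UMIs.

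**Figure D4:**
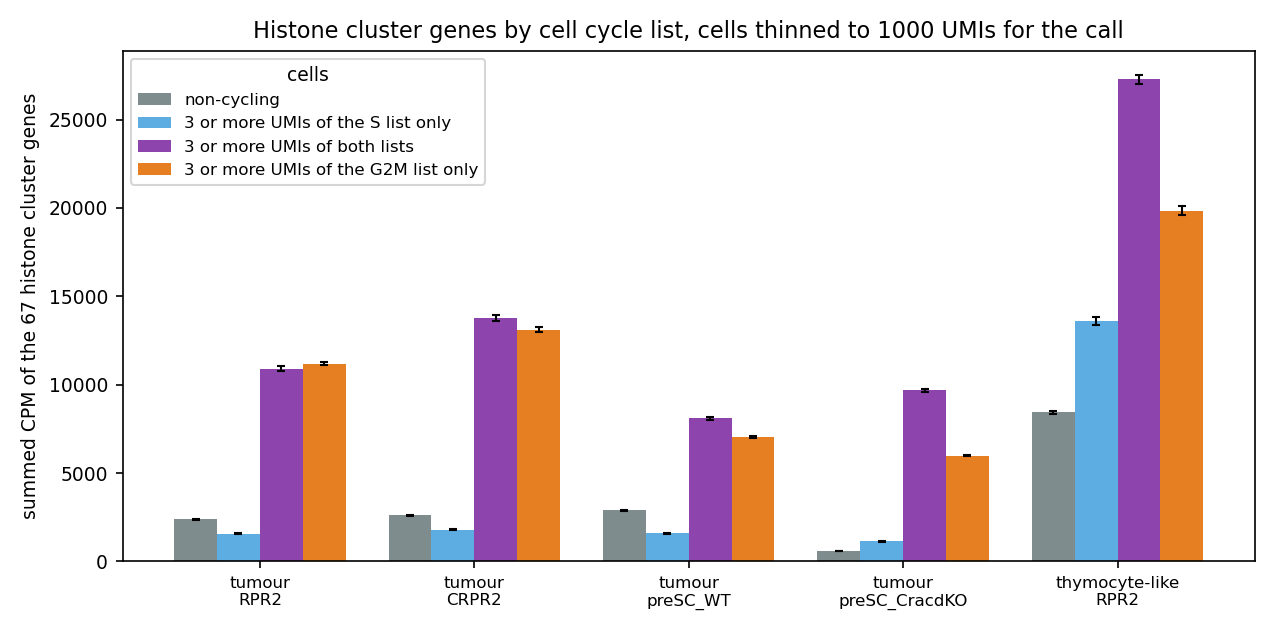
Summed level of the histone cluster genes (CPM, vertical axis) in cells grouped by which cell cycle list reached 3 UMIs, for tumour cells of the 4 libraries and thymocyte-like cells of RPR2. Tumour cells with the S list alone lie at 1147 to 1793 CPM and those with both lists at 8091 to 13772 CPM.

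The named pairs of groups were compared within cycling and within non-cycling tumour cells. In the lung pair, CRPR2 and RPR2 differed little: the summed level in cycling cells was 1.04 times as high in CRPR2 (1.03 to 1.05) and in non-cycling cells 1.10 times. Among members tested in cycling cells, 1 of 49 was 2-fold higher in CRPR2 and 1 was lower, while 0.545% of all genes were higher and 0.7% lower. Hist1h2bc was the higher one (371 CPM in RPR2, 776 CPM in CRPR2). Hist1h2bl, an H2B gene whose end is largely shared with another member, was the lower one, at 30.2 CPM in RPR2 and 1.83 CPM in CRPR2, a 16.5-fold gap (10.7 to 26.6). In non-cycling cells 0 of 30 members were 2-fold apart, against 1.41% of all genes. The direction of the lung sums turned with the processing: the cycling ratio was 0.971 with cells thinned to 2000 UMIs and 0.587 per cell, and the non-cycling ratio 0.926 at matched depth and 0.671 per cell.

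The allograft pair differed in non-cycling cells. There the summed level was 2886 CPM in preSC_WT and 596 CPM in the library labelled preSC_CracdKO, 4.84-fold lower. In cells thinned to the same 1000 UMIs, 81.5% of non-cycling preSC_WT cells had at least 1 member UMI and 38.7% of the preSC_CracdKO cells did; in non-cycling immune cells of these libraries, at median depths of 1590 and 1574 UMIs, the shares were 52.9% and 45.0%. Of 26 members tested, 16 were 2-fold lower and 1 was higher, while 15.1% of all genes were lower and 8.26% higher. Members that entered these counts only through their preSC_WT level had to be lower. The median log2 ratio was -1.92 over the tested members and -0.53 over all 64 kept members. Hist1h4i was 111 against 2.44 CPM, Hist1h2bc 299 against 13.2 CPM, Hist1h1c 431 against 30.4 CPM and Hist3h2ba 912 against 127 CPM. In each of these 4 genes the non-cycling level of preSC_WT was above its cycling level. Hist1h3c was the 1 member 2-fold higher, at 1.96 CPM in preSC_WT and 10.8 CPM in preSC_CracdKO. Smaller rises were found as well. The highest log2 ratio of a tested member was 0.57 for H1, 0.80 for H2A, 0.82 for H2B and -0.07 for H4. The class medians were -2.87, -2.11, -2.37 and -1.27 in that order, and 0.11 for H3. The replication-independent H3.3 genes H3f3a and H3f3b and the linker variant H1fx were 2-fold lower as well, H3f3b at 15226 against 5136 CPM.

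In cycling cells of the allograft pair the sums were nearly equal, 1.04 times as high in preSC_CracdKO, but the members were not. Of 52 tested, 20 were 2-fold higher and 7 were lower, while 7.31% of all genes were higher and 13.7% lower. Members that entered these counts only through 1 library had to differ. Over all 64 kept members the median log2 ratio was 0.49. Higher ones included Hist1h2bl (17.2 and 93.2 CPM), Hist1h3c (74.8 and 392 CPM), Hist2h2ac (51.2 and 247 CPM), Hist2h2bb (22.7 and 97.4 CPM), Hist1h2ab (29.2 and 125 CPM), Hist1h2bm (12.7 and 46.5 CPM) and Hist1h1a (48.3 and 134 CPM). The 7 lower ones were Hist1h4i (72.6 and 7.90 CPM), Hist1h2bc (269 and 38.4 CPM), Hist1h3d (20.1 and 5.06 CPM), Hist3h2ba (647 and 167 CPM), Hist3h2a (73.3 and 26.3 CPM), Hist2h2be (12.8 and 4.78 CPM) and Hist1h1c (283 and 111 CPM). No cluster held many tumour cells of both allografts: those of preSC_WT were in clusters 0, 1, 5, 10 and 14, and those of preSC_CracdKO in clusters 2, 3, 4, 6, 7 and 9. Among immune cells of these libraries the non-cycling sums were 1416 and 729 CPM (ratio 0.515, 0.444 to 0.594), and the mitochondrial share of non-cycling tumour cells was 1.82% in preSC_WT and 3.05% in preSC_CracdKO at the median; whether these move the histone values was not tested. The cycling ratio was below 1 under 4 other settings, between 0.877 and 0.938.

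**Figure D5:**
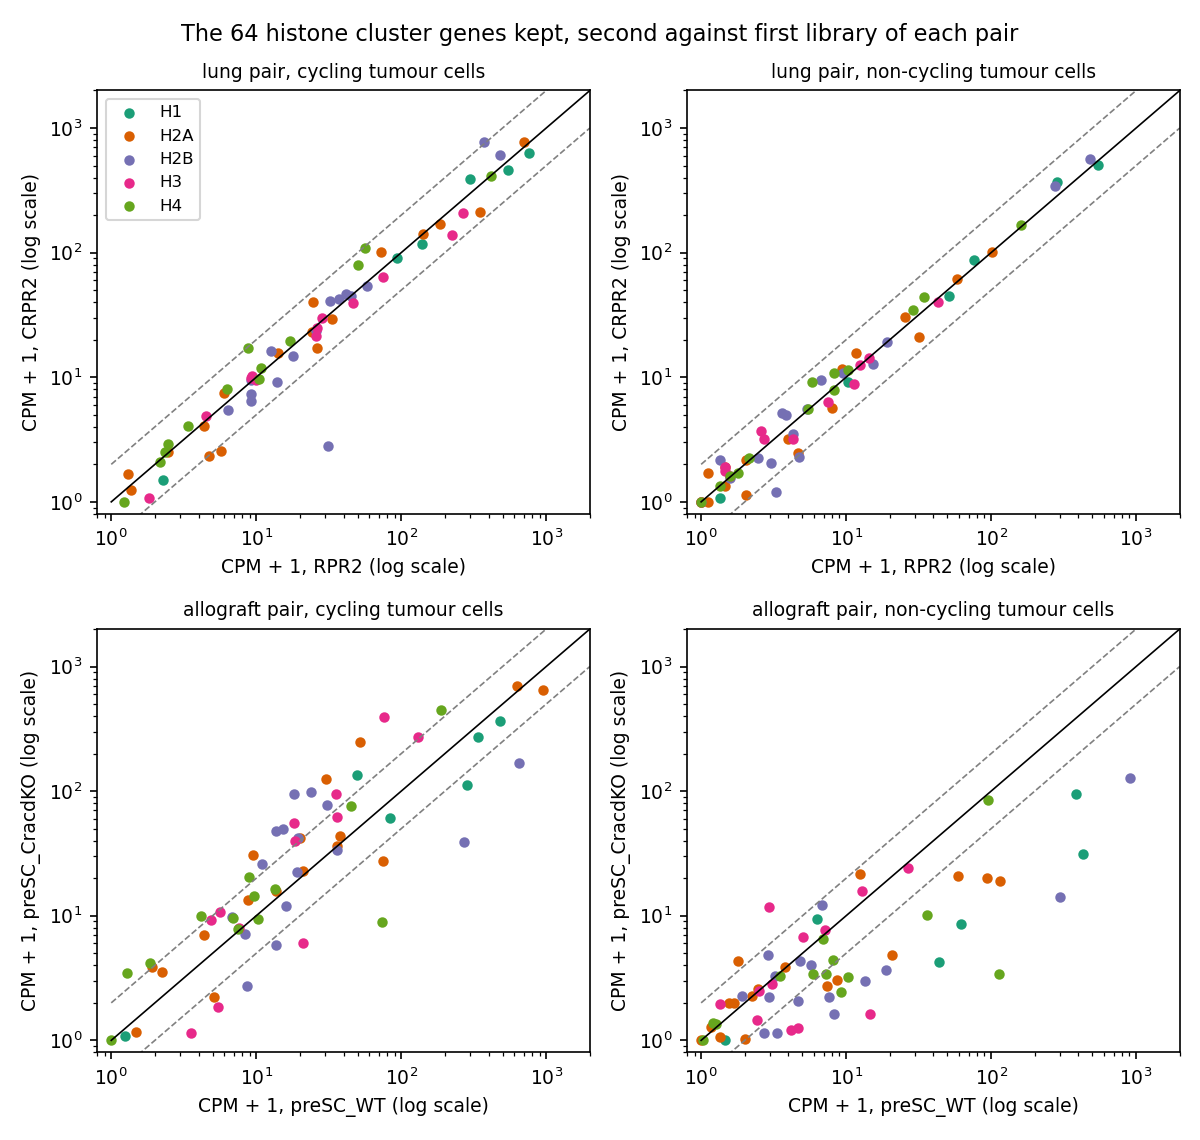
CPM + 1 of each of the 64 kept members in CRPR2 (vertical) against RPR2 (horizontal) and in preSC_CracdKO against preSC_WT, for cycling and non-cycling tumour cells, on log axes with a line of equality and dashed lines at 2-fold. Lung members tested in cycling cells lie within the dashed lines apart from Hist1h2bl (30.2 and 1.83 CPM) and Hist1h2bc (371 and 776 CPM, just outside), and non-cycling allograft members above 20 CPM in preSC_WT all lie below it.

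Thymocyte-like cells, found in RPR2 only (3392 cells), were the class with the most histone cluster RNA. Their summed level was 20503 CPM in 720 cycling and 8436 CPM in 1965 non-cycling cells (median 4656 and 1396 UMIs), a ratio of 2.43, or 8.60 as mean member UMIs per cell, and 41 of 56 members were 2-fold higher in cycling cells and 4 lower, against 9.61% and 16.1% of all genes. The 4 lower members were Hist1h2bc (295 against 743 CPM), Hist1h4i (79.9 against 251 CPM), Hist3h2a (124 against 462 CPM) and Hist3h2ba (119 against 431 CPM). Hist1h1b had the highest level in cycling cells (3290 CPM, and 630 CPM in non-cycling ones) and Hist1h1e in non-cycling cells (1511 CPM). Set against RPR2 tumour cells, cycling thymocyte-like cells had 3.49 times and non-cycling ones 3.54 times the summed level, as shares of UMIs, with 46 of 56 members (7.87% of all genes) and 39 of 43 members (14.3%) 2-fold higher. 1 member in cycling cells (34.9% of all genes) and 0 in non-cycling cells (32.4%) were 2-fold lower. In these counts, and in those of cycling against non-cycling thymocyte-like cells, members that entered only through 1 side had to differ. Over all 64 kept members the median log2 ratio was 1.498 for cycling over non-cycling thymocyte-like cells. For thymocyte-like over tumour cells it was 1.992 in cycling and 1.885 in non-cycling cells. The medians over all genes tested were -0.280, -0.497 and -0.344 in that order. Counted per cell, the non-cycling order turned, with a mean of 14.5 member UMIs in thymocyte-like and 15.3 in the deeper tumour cells (median 1396 and 5371 UMIs); at 2000 to 4000 UMIs the levels were 7979 and 2570 CPM. The 1 lower member was Hist3h2ba, at 119 CPM in cycling thymocyte-like and 480 CPM in cycling tumour cells. Here too cells with the S list alone were below those with both lists, 13616 against 27277 CPM. The thymocyte markers summed to 1692 and 3711 CPM in cycling and non-cycling thymocyte-like cells and to 29.1 and 32.3 CPM in the tumour cells.

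Other immune cells had histone levels closer to those of tumour cells. Cycling and non-cycling cells stood at 5013 and 1988 CPM in RPR2 (118 cycling cells), 3092 and 1626 CPM in CRPR2 (77 cycling cells) and 5358 and 1416 CPM in preSC_WT (295 cycling cells), ratios of 2.52, 1.90 and 3.78, or 4.94, 3.78 and 10.1 as mean member UMIs per cell. In preSC_CracdKO only 15 immune cells were cycling and no cycling value is given. Members 2-fold higher numbered 32 of 46, 26 of 40 (with 2 lower) and 35 of 47, while 16.5%, 18.9% and 19.5% of all genes were higher and 3.77%, 6.86% and 9.71% lower. Members that entered these counts only through their cycling level had to be higher. The median log2 ratio was 1.42, 1.26 and 1.60 over all 64 kept members and 0.24, 0.28 and 0.34 over all genes tested. Cycling immune cells also carried more tumour marker RNA, 1972, 2368 and 7039 CPM in sum against 185, 496 and 3329 CPM in non-cycling ones, and its part in the histone ratio was not tested. The preSC_WT ratio was 2.04 in immune cells of 4000 to 8000 UMIs. By class, values were taken over all cells, including those under 1000 UMIs that had no cycling call. In preSC_WT only 349 of the 1099 B cell-like cells reached 1000 UMIs. On this basis B cell-like cells had 3059, 2799 and 3062 CPM in RPR2, CRPR2 and preSC_WT. In T cell-like cells the level was 2561, 1363 and 2342 CPM, and in macrophage-like cells 2066, 1391 and 2121 CPM. The leading member differed by class and by library. It was Hist1h1e in T cell-like and plasma-like cells of both lung libraries and Hist1h2bc in their macrophage-like cells. In preSC_WT it was Hist1h2ap in T cell-like and B cell-like cells, which also led the cycling tumour cells of that library. T cell-like cells of preSC_CracdKO were led by Hist1h4d. B cell-like cells were led by Hist1h1e in RPR2 and preSC_CracdKO and by Hist1h2bc in CRPR2.

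Histones outside the clusters, most of whose mRNAs are also made outside S phase, had smaller ratios as a group. H2afx, which was placed in this group, has a stem-loop match in its annotated transcripts, as most cluster members do. Of 11 replication-independent histone genes, 3, 5, 3 and 4 were 2-fold higher in cycling tumour cells and 0 lower. The shares of all genes tested were 3.38%, 4.24%, 3.9% and 3.62% higher and 0.218%, 0.164%, 0.0455% and 0.157% lower. The genes higher in all 4 libraries were Cenpa, the centromeric H3 (259, 202, 183 and 193 CPM in cycling cells, ratios of 17.2, 17, 12.4 and 11.1), H2afx, the H2A variant phosphorylated at DNA breaks (195, 155, 158 and 112 CPM, ratios of 6.0, 4.68, 5.60 and 5.07), and H2afz, the H2A variant at gene starts (2817, 2756, 2062 and 1210 CPM, ratios of 2.16, 2.44, 2.24 and 2.35). H3f3b was level, with ratios of 0.997, 0.972, 0.863 and 1.28. Among 32 tested genes of histone mRNA processing, transcription and chaperoning, 3, 9, 5 and 2 were 2-fold higher and 0 lower, beside the same shares of all genes. The counts in RPR2 and preSC_CracdKO rest on few genes. Asf1b, a chaperone that hands H3–H4 to the replication fork, was higher in all 4 libraries, with ratios of 6.63, 7.77, 6.48 and 4.93. Slbp itself had ratios of 1.72, 2.13, 1.85 and 1.33 and Npat 1.36, 1.30, 1.41 and 1.12.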

How the data were processed

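Raw counts of UMIs per gene and barcode were deposited by the authors as filtered 10x matrices, made with Cell Ranger 6.1.2 (lung) and 5.0.0 (allograft) per the file headers and with mm10, Scanpy 1.8.2 and a tool listed as Seurat 1.8.2 per the submitters' processing notes. The feature lists differ between these pairs, so no ratio was taken across them. Members and gene lists were chosen with earlier results of these data known. Barcodes needed 300 genes or more and a mitochondrial UMI share of no more than 15%. Doublets called by Scrublet were taken out in RPR2 (2.84% of cells) and preSC_WT (1.93%); in CRPR2 and preSC_CracdKO its automatic call marked under 0.5%, and the cells scoring highest were taken out instead, 0.8% for every 1000 barcodes (9.73% and 13%). Each pair was clustered in Scanpy 1.11.5 under Python 3.11.15 (2000 variable genes without the members, 50 components, 15 neighbours, Leiden resolution 1 from leidenalg 0.10.2, seed 1, no batch integration). Clusters were named from markers by a rule set after the clusters were seen: a mean score of 2 and 3 markers in 20% of cells, or for tumour cells 0.4 and 5 markers in 5%; the tumour minimum was lowered after some preSC_CracdKO clusters had stayed unnamed. Rebuilt names can differ from the study's.

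UMIs were summed per class, state and library and divided by all UMIs of those cells (CPM). Gene ratios used log2(CPM + 1) among genes with a mean of at least 5 CPM, which understates ratios of low genes, and a gene was counted past 2-fold. Intervals are 95% (exact Poisson for sums, conditional binomial for ratios, Clopper-Pearson for shares of cells; SciPy 1.17.1), cover counting error only, and say nothing about animals. On simulated data, 100 of 100 genes raised 4-fold and 100 of 100 lowered 4-fold were recovered with 0 false calls in each of the 4 libraries. The simulation held counting error only, and its changed genes had a mean of at least 5 CPM. It therefore checks the arithmetic of the calls, and not calls near 2-fold or differences between libraries or animals. Named members were, for each of H1, H2A, H2B, H3 and H4, the 4 with the most UMIs, all kept members of the Hist2, Hist3 and Hist4 clusters, the 5 highest and 5 lowest median cycling ratios, and those past 2-fold between paired libraries in cycling tumour cells; other histone and processing genes were named when past 2-fold in all 4 libraries, and Slbp and Npat always. H3f3a, H3f3b and H1fx were named after their values were seen. Stem-loops were read from GENCODE vM21 transcripts and promoters from RefSeq. Alternatives were the cycling cut, thinning depth, doublets, mitochondrial limit, per-cell means, pseudocount and filter, with matched depth and a left-out cluster added after the data were seen.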

Additional observations from a re-analysis of the deposited data

Results flagged for a closer look

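For 5 members, the ratio of cycling over non-cycling tumour cells lay on opposite sides of 1 in the allograft libraries. It was 0.658 in preSC_WT and 3.65 in preSC_CracdKO for Hist1h1c, 0.898 and 2.91 for Hist1h2bc, 0.651 and 3.24 for Hist1h4i, 0.792 and 1.39 for Hist3h2a, and 0.709 and 1.32 for Hist3h2ba. With 1 library each, the difference was not tested.

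Cells outside the comparisons also held histone cluster RNA. Tumour cells under 1000 UMIs, which were left out of the cycling call, had 8348 CPM in RPR2, 9095 CPM in CRPR2, 2893 CPM in preSC_WT and 3800 CPM in preSC_CracdKO, and thymocyte-like cells of this depth had 13054 CPM in RPR2. The levels in RPR2 and CRPR2 were above those of the cycling tumour cells of the same libraries. Clusters left unnamed had 1613 CPM (lung cluster 12, CRPR2), 4822 CPM (allograft cluster 12, preSC_WT), 3679 CPM (allograft cluster 21, preSC_WT) and 7407 CPM (allograft cluster 12, preSC_CracdKO).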

How the results depend on the processing

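No paired analysis was possible because each group is 1 library, and leaving out a replicate was not possible for the same reason. Of 173 alternative values, 73 stayed within counting error, or within 1.5 times for counts; 8 of 109 ratios lay on the other side of 1 and 9 were over 1.5 times away. A mitochondrial limit of 10% and a pseudocount of 5 CPM moved none beyond these bounds. For the moved values the cause was not tested. 5 values were not computed, with under 50 cells in a class: immune cells of RPR2 and CRPR2 at a cut of 5 UMIs and at 4000 to 8000 UMIs, and thymocyte-like cells at that depth. Depth limits single genes below about 5 CPM.

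Cycling over non-cycling ratios of tumour cells in RPR2, CRPR2, preSC_WT and preSC_CracdKO were 2.05, 2.00, 1.53 and 7.64 with a cut of 2 UMIs, 3.35, 3.42, 2.20 and 8.02 with a cut of 5, 1.88, 1.76, 1.41 and 7.08 with cells thinned to 2000 UMIs, 3.25, 2.84, 2.50 and 11 per cell, and 1.87, 2.63, 1.79 and 8.11 in cells of 4000 to 8000 UMIs. With doublets kept, CRPR2, preSC_WT and preSC_CracdKO had 2.37, 1.77 and 7.58, and without allograft cluster 0 preSC_WT had 1.95.

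S over G2/M ratios in the same order were 0.162, 0.163, 0.258 and 0.185 (cut 2), 0.174, 0.169, 0.256 and 0.130 (thinned to 2000), 0.153, 0.175, 0.238 and 0.273 (doublets kept), 0.134, 0.140, 0.182 and 0.211 (per cell) and 0.138, 0.133, 0.166 and 0.183 (4000 to 8000 UMIs). At a cut of 5, CRPR2, preSC_WT and preSC_CracdKO had 0.154, 0.239 and 0.479.

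Immune cells of RPR2, CRPR2 and preSC_WT had ratios of 2.28, 1.47 and 3.52 (cut 2), 2.71, 2.82 and 3.16 (doublets kept) and 4.94, 3.78 and 10.1 (per cell), and preSC_WT had 4.21 (cut 5), 3.16 (thinned to 2000) and 2.04 (4000 to 8000 UMIs). Thymocyte-like cells had 2.29 (cut 2), 2.73 (cut 5), 3.16 (thinned to 2000), 2.47 (doublets kept) and 8.60 (per cell).

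CRPR2 over RPR2 was 1.01 (cut 2), 1.11 (cut 5), 1.05 (doublets kept), 1.30 (4000 to 8000 UMIs), 0.971 (thinned to 2000) and 0.587 (per cell) in cycling cells, and 1.04 (cut 2), 1.04 (thinned to 2000), 0.926 (4000 to 8000 UMIs) and 0.671 (per cell) in non-cycling cells. For preSC_CracdKO over preSC_WT, cycling cells gave 0.938 (cut 2), 1.10 (cut 5), 0.894 (thinned to 2000), 0.925 (doublets kept), 0.877 (4000 to 8000 UMIs) and 1.00 (per cell). Non-cycling cells gave 0.188, 0.302, 0.177, 0.215, 0.194 and 0.228 in that order, and 0.220 without cluster 0.

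Members 2-fold higher in cycling cells numbered 15 (RPR2), 9 (preSC_WT) and 25 (preSC_CracdKO) with a mean of at least 20 CPM, where fewer members were tested. Members 2-fold apart between the lung libraries in cycling cells numbered 2, against 1 (cut 2), 4 (cut 5), 1 (thinned to 2000), 1 (20 CPM) and 4 (no filter), and in non-cycling cells 0, against 1 (cut 2), 1 (thinned to 2000) and 2 (no filter). In non-cycling allograft cells 17 members were apart, against 11 (20 CPM) and 29 (no filter).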
